A study of Mus musculus with 6 samples.

Results

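The inflammasome and interleukin-1 (IL-1) system was described here by 10 genes of the 19790 in the count table, found through their NCBI gene identifiers. They comprise the ligands Il1b and Il18, the receptor antagonist Il1rn and the signalling receptor Il1r1. The sensors Nlrp3 and Aim2, the adaptor Pycard, the caspases Casp1 and Casp4 and the pore-forming Gsdmd complete the list. All 10 genes were in the table and all 10 passed the filter on low counts.

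Inflammasomes are protein platforms assembled when a sensor in the cytosol meets a danger signal. The sensor recruits the adaptor ASC (encoded by Pycard), which activates caspase-1, and caspase-1 then cuts the precursors of IL-1β and IL-18 and opens gasdermin D pores in the cell membrane. Caspase-11 (encoded by Casp4 in the mouse) reaches gasdermin D directly after sensing bacterial lipopolysaccharide. IL-1β acts on cells that carry IL-1R1, where IL-1RA (encoded by Il1rn) competes for the same binding site. In obese adipose tissue these genes are known chiefly from macrophages and other myeloid cells, whereas Il1r1 is also carried by adipocytes and stromal cells.

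RNA was sequenced from gWAT (gonadal fat, a visceral depot attached to the reproductive organs) of male wild-type C57BL/6 mice. A group of 3 mice ate a normal chow diet (NCD) and a group of 3 a high-fat diet (HFD), each for 8 weeks at 22 °C, with no other treatment named. The samples are titled WT, a name the methods also give to mice with a floxed allele and no Cre. The paper does not say which kind was sequenced. The diets began at 6 weeks of age by the sample labels, while the methods give 8 weeks. The libraries are labelled as numbered replicates of each diet and were taken as separate mice. The p-values set the diet difference against the spread between these 3 and 3 samples.

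Libraries held 49575113 to 66360046 counts. Levels are given as TMM-scaled CPM, that is, counts relative to a library size corrected by the trimmed mean of M values. Diets were compared by the quasi-likelihood test of edgeR over 15241 genes, with p-values adjusted over all of them (Benjamini-Hochberg) and a gene called at an adjusted p below 0.05. The adipocyte markers Adipoq and Plin1 were detected in every library, at 532 to 2695 and 287 to 1289 TMM-scaled CPM, respectively. A set of 11 seminal vesicle secretion genes took up 58.6% of the NCD replicate 1 library, compared with 11.2% and 2.3% in the other NCD mice and at most 1.21e-05% on HFD. Results are therefore also given without NCD replicate 1. With total counts in place of TMM, the median log2 fold change of all genes tested moved from -0.078 to 0.45. All 10 members had a positive log2 fold change under either scaling.

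The members lie on 6 chromosomes of mouse build GRCm38.p6 (RefSeq gene spans). Il1b (chr2:129364569-129371164) and Il1rn (chr2:24336860-24351491) share chromosome 2. Casp1 (chr9:5298517-5307281) and Casp4 (chr9:5308849-5336791) are neighbours separated by 1567 bp, and Il18 (chr9:50554700-50581841) lies on the same chromosome. Il1r1 (chr1:40222480-40316201) and Aim2 (chr1:173349547-173466040) are on chromosome 1, Nlrp3 (chr11:59541569-59566955) on 11, Pycard (chr7:127991373-127993867) on 7 and Gsdmd (chr15:75862144-75867408) on 15. Antisense genes overlap Il1b (Il1bos), Il18 (Bco2) and Aim2 (Cadm3). No source used here states whether the counting used strand, so reads of these pairs may not be separable. Il1bos itself held at most 1.04 TMM-scaled CPM in any mouse and 0 to 0.558 on HFD. Bco2 was at 1.1 to 1.75 in NCD and 2.13 to 4.51 on HFD. Cadm3 was at 5.48, 12.3 and 8.3 TMM-scaled CPM in NCD and 14.6, 24.2 and 16.7 on HFD, close to the levels of Aim2 given below and also higher on HFD, and its part in the Aim2 counts was not tested.

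The bases just upstream of the starts of 4 members are shown. Of the HFD mice, replicate 1 was the highest for Il1rn and the lowest for Il1b, Nlrp3 and Casp4, as described below. Each window holds the 250 bases before a start listed by RefSeq (GRCm38.p6), read 5′ to 3′ on the strand of the gene. The windows are chr2:129371140-129371389 on the minus strand for Il1b, chr2:24336610-24336859 on the plus strand for Il1rn, chr11:59541319-59541568 on the plus strand for Nlrp3 and chr9:5308599-5308848 on the plus strand for Casp4. Il1rn has 3 listed starts, Nlrp3 and Casp4 have 2 each, and gene counts do not tell which start was used. The last bases of the Il1b window lie inside its RefSeq gene span. Capitals mark every match to the motifs named after the sequences.
Il1b: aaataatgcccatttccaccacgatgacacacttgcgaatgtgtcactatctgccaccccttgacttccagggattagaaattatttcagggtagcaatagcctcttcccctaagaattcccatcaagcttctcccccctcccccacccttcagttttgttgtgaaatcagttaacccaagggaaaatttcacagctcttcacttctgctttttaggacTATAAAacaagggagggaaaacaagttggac
Il1rn: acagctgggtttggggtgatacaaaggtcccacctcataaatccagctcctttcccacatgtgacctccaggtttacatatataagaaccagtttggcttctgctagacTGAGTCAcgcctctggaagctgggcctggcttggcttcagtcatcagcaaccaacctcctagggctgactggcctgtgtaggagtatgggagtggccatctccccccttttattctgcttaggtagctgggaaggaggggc
Nlrp3: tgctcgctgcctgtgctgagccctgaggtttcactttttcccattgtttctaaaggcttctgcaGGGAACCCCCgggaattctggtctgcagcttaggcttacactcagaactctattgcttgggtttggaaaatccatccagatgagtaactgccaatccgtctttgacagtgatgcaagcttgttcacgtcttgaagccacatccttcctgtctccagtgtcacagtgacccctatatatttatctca
Casp4: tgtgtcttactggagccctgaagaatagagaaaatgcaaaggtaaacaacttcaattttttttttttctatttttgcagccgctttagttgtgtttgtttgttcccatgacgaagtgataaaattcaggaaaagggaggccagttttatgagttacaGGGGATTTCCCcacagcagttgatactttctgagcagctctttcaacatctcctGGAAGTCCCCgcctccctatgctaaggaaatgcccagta
Motifs were searched on both strands of 14 windows belonging to 9 members (Gsdmd was not covered). A TATA box (TATAAA) began 31 bases before the Il1b start. In Il18 these letters were found only on the opposite strand, as TTTATA beginning 175 bases before the start. On either strand the motif was held by 12.4% of 32851 mouse windows of the same length. An AP-1 motif (TGANTCA, 6.75% of windows) began 141 bases before the Il1rn start. The NF-kB consensus (7.25% of windows) matched in a window of Nlrp3, Casp4 and Il1r1, and in Casp4 a pair of its matches overlapped. The PU.1 core (GAGGAA, 23.3% of windows) was found in windows of Nlrp3, Casp1, Pycard and Aim2, and the C/EBP motif (TTGCNNAA, 9.56%) in those of Pycard and Il1r1. The interferon response motif (GAAA, any 2 bases, then GAAA again, 2.98%) was found in 0 of the 9 members. A match describes letters in the window and is not a measured binding site.

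By edgeR's test, Il1rn, Aim2 and Gsdmd rose on HFD, and 0 of 10 members fell. These 3 calls of 10 stand beside 5.58% of all genes tested called higher and 1.90% called lower. Unadjusted p was below 0.05 for 8 of 10 members, namely all but Pycard and Il1r1, all of them higher on HFD, as it was for 16.0% of all genes tested in that direction and 13.7% in the other. DESeq2 called these 8 as well and 0 lower, beside 14.1% of all genes called higher and 11.5% called lower. Without NCD replicate 1, Casp1, Pycard, Il1rn, Aim2 and Gsdmd were called higher, 5 of 10, beside 10.7% of all genes called higher and 10.1% called lower. For 7 of 10 members every HFD mouse stood above every NCD mouse, as did 20.5% of all genes tested. The median log2 fold change of the 10 members was 1.69, compared with -0.078 for all genes tested. With a mouse other than NCD replicate 1 left out, edgeR called 0 of 10 members, with 7 or 8 at an unadjusted p below 0.05. Of the 15433 to 15764 genes tested in these fits, 2 to 7 were called and 2988 to 4345 had an unadjusted p below 0.05 in either direction. In a bulk tissue, a change in the number of cells of a type and a change in RNA per cell cannot be told apart.

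**Figure D1:**
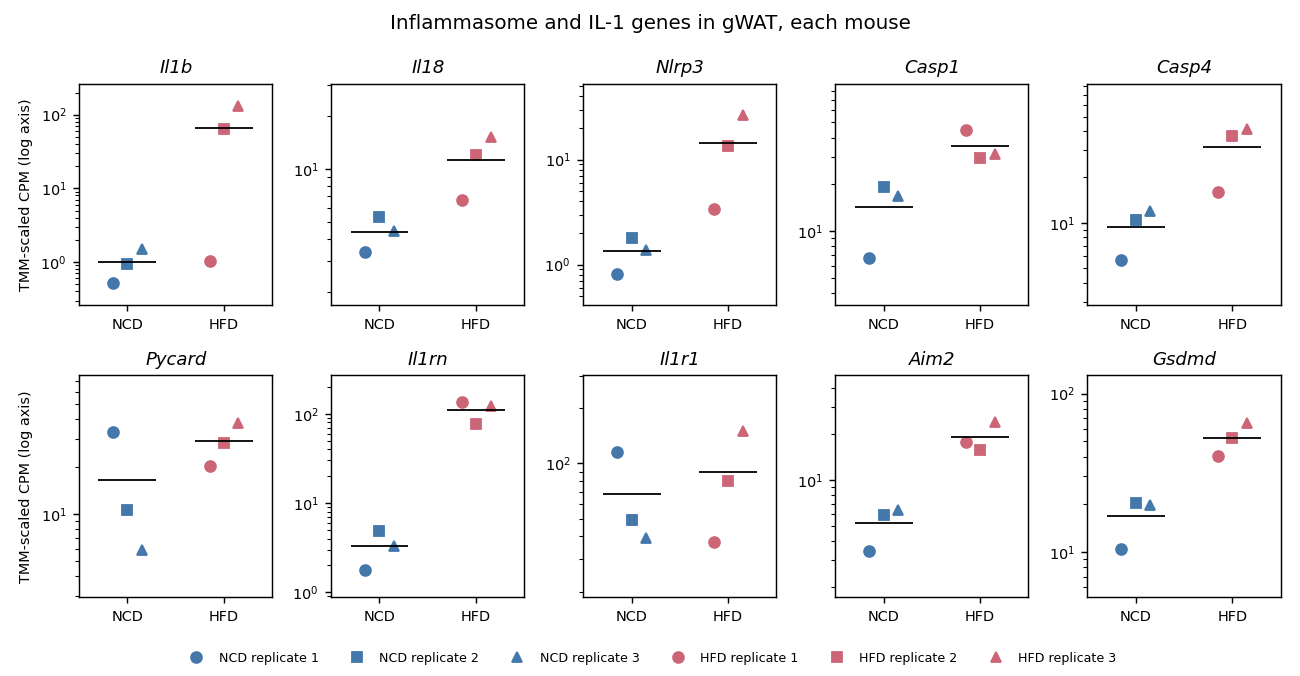
TMM-scaled CPM (log axis) of the 10 members in each of 3 NCD (blue) and 3 HFD (red) mice, with the symbol giving the replicate number and the bar the group mean. Il1rn lies between 77.2 and 134 in all 3 HFD mice, whereas Il1b is at 1.02 in HFD replicate 1 and at 64.1 and 132 in the other HFD mice.

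Among the ligands, Il1b, the precursor of the secreted cytokine IL-1β, had the largest standard error of the members. The 3 NCD mice had 0.518, 0.953 and 1.51 TMM-scaled CPM, and HFD replicates 1 to 3 had 1.02, 64.1 and 132. HFD replicate 1 thus lay inside the NCD range, with 59 counts against 17 to 81 in NCD, while the other HFD mice had 5351 and 8282 counts. Its log2 fold change was 6.03 ± 1.62 (SE, n = 3 per diet; edgeR adjusted p = 0.0738), and 5.76 without NCD replicate 1 (edgeR adjusted p = 0.0885).

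Il18, the other caspase-1 substrate, is a cytokine that acts with IL-12 on lymphocytes. Its level was 3.38, 5.32 and 4.45 TMM-scaled CPM in the NCD mice and 6.64, 12 and 15.2 in the HFD mice. The diets did not overlap, and HFD replicate 1 was again the lowest of its group, close to the highest NCD mouse. The log2 fold change of 1.36 ± 0.366 (SE) missed the threshold (edgeR adjusted p = 0.0738), also without NCD replicate 1 (edgeR adjusted p = 0.0725).

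The antagonist Il1rn had the smallest adjusted p of the members. It was at 1.77, 4.85 and 3.26 TMM-scaled CPM in the NCD mice and at 134, 77.2 and 123 in the HFD mice. All 3 HFD mice stood far above the NCD range, and HFD replicate 1, the mouse with little Il1b, had the highest value. Il1rn rose by a log2 fold change of 5.07 ± 0.465 (SE; edgeR adjusted p = 0.0192), from a mean of 3.29 ± 1.54 to 111 ± 30.1 TMM-scaled CPM (SD, n = 3). The value without NCD replicate 1 was 4.79 (edgeR adjusted p = 0.00544). When another mouse was left out instead, the log2 fold change was 4.93 to 5.46 and the edgeR adjusted p 0.0548 to 0.0971.

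Il1r1, the receptor that passes the IL-1 signal into the cell, did not separate the diets. It was at 116, 49.2 and 39.3 TMM-scaled CPM in the NCD mice and 37.3, 80.4 and 151 in the HFD mice. The lowest value of all 6 belonged to HFD replicate 1, and the second highest to NCD replicate 1. The log2 fold change was 0.39 ± 0.615 (SE; edgeR adjusted p = 0.697). It was 1.04 without NCD replicate 1 (edgeR adjusted p = 0.241) and -0.20 without HFD replicate 3 (edgeR adjusted p = 0.872), so that its direction rested on single mice.

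Of the sensors, Nlrp3, which responds to membrane damage, crystals and potassium efflux, was at 0.822, 1.81 and 1.38 TMM-scaled CPM in the NCD mice. In the HFD mice it was at 3.4, 13.4 and 26.5. The diets did not overlap, and the HFD mice were ordered as for Il1b, with HFD replicate 1 lowest. The log2 fold change of 3.42 ± 0.784 (SE) missed the threshold (edgeR adjusted p = 0.0532), also without NCD replicate 1 (edgeR adjusted p = 0.0565), and passed with total counts without scaling (log2 fold change 3.87, edgeR adjusted p = 0.0435).

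Aim2 binds double-stranded DNA in the cytosol. It was at 3.44, 5.92 and 6.4 TMM-scaled CPM in the NCD mice and at 17.6, 15.6 and 24 in the HFD mice. The HFD mice were close to each other and all above NCD. Aim2 rose by a log2 fold change of 1.86 ± 0.314 (SE; edgeR adjusted p = 0.0289), and by 1.65 without NCD replicate 1 (edgeR adjusted p = 0.011). When another mouse was left out instead, its edgeR adjusted p was 0.0706 to 0.118.

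The adaptor Pycard links sensors to caspase-1. It was at 33.1, 10.6 and 5.88 TMM-scaled CPM in the NCD mice and 20.3, 28.1 and 38.1 in the HFD mice. NCD replicate 1 lay among the HFD mice, and the other NCD mice below them. With all 6 mice the log2 fold change was 0.81 ± 0.644 (SE; edgeR adjusted p = 0.432). Without NCD replicate 1, Pycard rose by 1.82 (edgeR adjusted p = 0.0264).

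Casp1, the protease that matures IL-1β and IL-18, was at 6.7, 19.2 and 16.9 TMM-scaled CPM in the NCD mice and 44.4, 29.7 and 31.4 in the HFD mice. Here HFD replicate 1 was the highest of all 6 mice and NCD replicate 1 the lowest. The log2 fold change was 1.3 ± 0.413 (SE; edgeR adjusted p = 0.103) and 0.97 without NCD replicate 1, past the threshold (edgeR adjusted p = 0.0284).

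Casp4, the lipopolysaccharide-sensing caspase, was at 5.72, 10.5 and 12 TMM-scaled CPM in the NCD mice and 16, 37.1 and 41.3 in the HFD mice. The diets did not overlap, but HFD replicate 1 was near the NCD mice, unlike for the adjacent Casp1. The log2 fold change was 1.74 ± 0.446 (SE; edgeR adjusted p = 0.0667) and 1.5 without NCD replicate 1 (edgeR adjusted p = 0.0589).

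Gsdmd, whose cleaved protein forms the pore through which IL-1β leaves the cell, was at 10.4, 20.3 and 19.8 TMM-scaled CPM in the NCD mice. In the HFD mice it was at 40.5, 52.3 and 65. No HFD mouse came near the NCD range. Gsdmd rose by a log2 fold change of 1.64 ± 0.318 (SE; edgeR adjusted p = 0.0382), and by 1.41 without NCD replicate 1 (edgeR adjusted p = 0.0138). It missed the threshold with total counts (edgeR adjusted p = 0.0633) and when a mouse other than NCD replicate 1 was left out (edgeR adjusted p 0.0717 to 0.144).

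**Figure D2:**
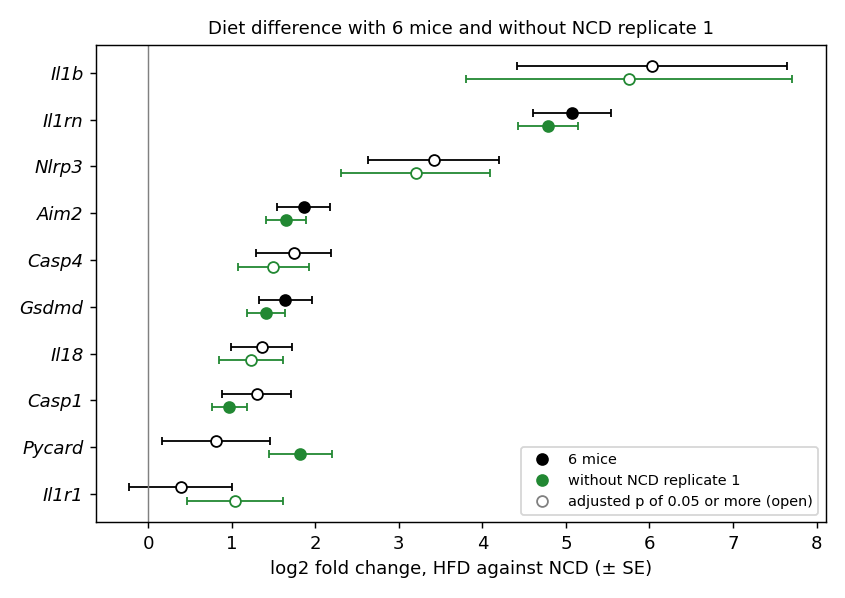
Log2 fold change of HFD against NCD (± SE) for each member from edgeR with all 6 mice (black) and without NCD replicate 1 (green), filled where the adjusted p was below 0.05. Il1rn at 5.07 and 4.79 is filled in both fits, Il1b at 6.03 and 5.76 is open in both and has the widest error bars, and Casp1 and Pycard are filled only without NCD replicate 1.

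Levels of different members were compared per exon length, as FPKM (counts divided by exon length and TMM-scaled library size), with no test. In NCD the highest means were those of Il1r1 (13.5 ± 8.29 FPKM, SD, n = 3), Casp1 (9.53 ± 4.45), Gsdmd (9.4 ± 3.09), Pycard (7.74 ± 6.81) and Casp4 (6.55 ± 2.28). These neighbours were closer to each other than their SDs. Il18 (4.25 ± 0.942 FPKM) followed, and Aim2 (1.85 ± 0.56), Il1rn (1.22 ± 0.572), Il1b (0.732 ± 0.366) and Nlrp3 (0.329 ± 0.122) were the lowest members in each NCD mouse, in this same order.

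On HFD the order of the FPKM levels differed between mice. Il1b had the highest FPKM of the 10 members in HFD replicates 2 and 3 (47.3 and 97.4) and the lowest in HFD replicate 1 (0.754), giving a mean of 48.5 ± 48.3 (SD, n = 3). Il1rn averaged 41.3 ± 11.2 FPKM and was among the highest 3 members in every HFD mouse. Gsdmd (29.3 ± 6.84), Casp1 (23.5 ± 5.38), Casp4 (21.9 ± 9.45), Il1r1 (17.7 ± 11.3), Pycard (13.5 ± 4.18) and Il18 (10.9 ± 4.19) came next, neighbouring means lying within their SDs. Aim2 (6.73 ± 1.54) and Nlrp3 (3.56 ± 2.86) were the lowest means on HFD. With the trimmed exon lengths, these sensors had lower FPKM than the adaptor and caspases in every HFD mouse. The FPKM of Pycard depended on the exon length used, as 7.6 in place of 13.5 resulted on HFD with exons not trimmed to the RefSeq gene span. In HFD replicate 1, Pycard (9.53 when trimmed) then lay below Aim2 (6.22).

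Ratios within a library do not depend on its scaling. They were compared by an exact two-sided permutation test over mice, in which 3 against 3 cannot give a p below 0.1. Il1rn counts were 3.34, 5.05 and 2.15 times those of Il1b in the NCD mice, and 130, 1.2 and 0.934 times in the HFD mice. The ratio of antagonist to agonist was therefore far above NCD in HFD replicate 1 and below the NCD range in the other HFD mice. The difference of the mean log2 ratios was 0.67 (exact permutation p = 1), and without HFD replicate 1 it was -1.64 (exact permutation p = 0.1).

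For the caspases, the Casp4 to Casp1 count ratio was 0.855, 0.544 and 0.712 in the NCD mice and 0.361, 1.25 and 1.32 in the HFD mice. Here HFD replicate 1 was below the NCD range and the other HFD mice above it, the reverse of the Il1rn to Il1b ratio, with a mean log2 difference of 0.28 (exact permutation p = 0.7). Il1r2 encodes the decoy receptor that binds IL-1 without signalling. Its count ratio to Il1r1 was 0.0357, 0.0182 and 0.0163 in the NCD mice and 0.0137, 0.143 and 0.233 in the HFD mice (mean log2 difference 1.81, exact permutation p = 0.4). The order was as for the caspases, but HFD replicate 1 was close to NCD replicate 3, with 29 and 34 Il1r2 counts, respectively.

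**Figure D3:**
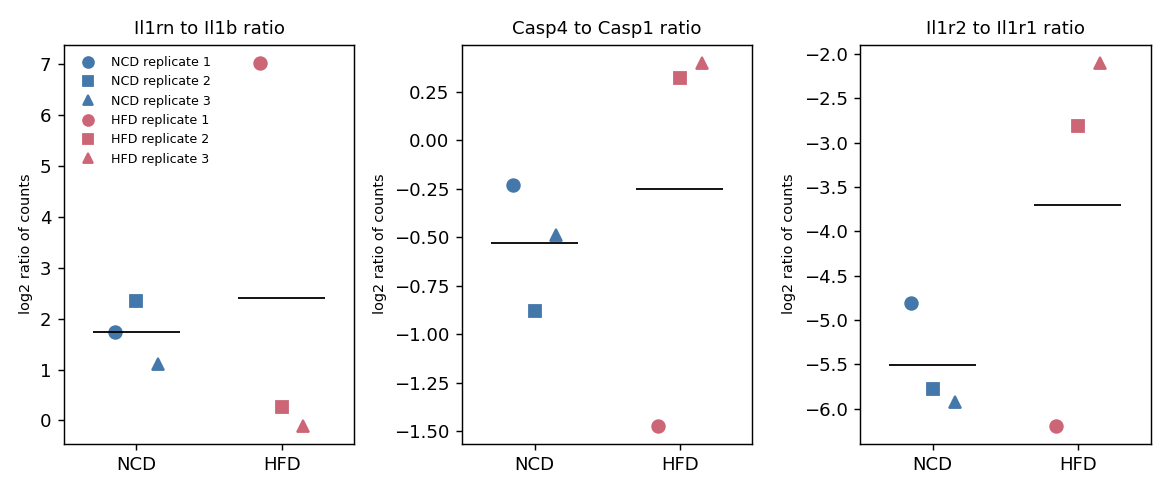
Log2 count ratios within each library for Il1rn to Il1b, Casp4 to Casp1 and Il1r2 to Il1r1 in NCD (blue) and HFD (red) mice, with the symbol giving the replicate number and the bar the group mean. HFD replicate 1 lies at 7.02, -1.47 and -6.19, and in each panel on the other side of the NCD mice from HFD replicates 2 and 3. For Il1r2 to Il1r1 it is close to NCD replicate 3 (-5.93).

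Macrophage markers moved with the diet. Of 9 macrophage genes, 6 rose, and their summed level was 422 to 902 TMM-scaled CPM in the NCD mice and 2264 to 3005 in the HFD mice. Of 6 lipid-associated macrophage genes 3 rose, with a sum of 75 to 403 in NCD and of 2650, 1152 and 1676 in HFD replicates 1 to 3. HFD replicate 1 was thus the highest mouse for both sums while its Il1b was at the NCD level. Single markers differed from the sums. In NCD replicate 1, where the lipid-associated sum was 403, Cd9 alone was at 359 TMM-scaled CPM. It was at 59.6 and 31.2 in the other NCD mice, and the part of the seminal vesicle RNA in it was not tested. Gpnmb was at 1331 TMM-scaled CPM in HFD replicate 1 and at 215 and 234 in the other HFD mice. Spp1 of the same list was at 57.1, 695 and 1171 in HFD replicates 1 to 3, and Fcgr1 of the macrophage list at 65.4, 146 and 236, so that these ordered the HFD mice as Il1b did.

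Summed neutrophil markers ordered the HFD mice as Il1b did, but in HFD replicate 1 their sum, mostly Csf3r, was above every NCD mouse. Of 9 genes, 5 passed the filter on low counts and Csf3r was called. Without NCD replicate 1, Csf3r missed the threshold (edgeR adjusted p = 0.0533) and S100a8 passed it (edgeR adjusted p = 0.0492). The summed level was 4.2 to 9.67 TMM-scaled CPM in NCD and 20.7, 159 and 428 in HFD replicates 1 to 3. In HFD replicate 1, Csf3r was at 15.8, S100a8 at 3.88, Mmp8 at 0.416 and Retnlg at 0.139, each above NCD. S100a9 (0.416) and Cxcr2 (0.104) lay within the NCD range in that mouse, and Ly6g, Camp and Ngp were at 0. S100a9 had 0, 26 and 16 counts in the NCD mice, 24 in HFD replicate 1 and 4228 and 10312 in the other HFD mice. Of the defining markers, Ly6g was at 0 counts in all NCD mice and HFD replicate 1 and at 7 and 11 counts in HFD replicates 2 and 3, and Retnlg was at 0 in all NCD mice and at 8, 147 and 376 counts on HFD. Camp and Ngp, genes of immature neutrophils, were at 14 counts or fewer in every mouse. Monocyte markers summed to 114 to 199 TMM-scaled CPM in NCD and to 269, 572 and 971 in HFD replicates 1 to 3, and 1 of 4 rose. The part of these cell types in the levels of the members was not tested.

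Of the other lists, 0 of 5 dendritic cell, 6 T cell, 5 B cell, 5 mast cell, 7 adipocyte, 5 endothelial and 5 epithelial genes were called by edgeR. Of these 38 genes, 7 had an unadjusted p below 0.05, and DESeq2 called 5. Without NCD replicate 1, the adipocyte genes Plin1 and Lipe fell (log2 fold change -1.17 and -0.95, edgeR adjusted p = 0.0234 and 0.0448), Pecam1 of the endothelial list rose (0.55, edgeR adjusted p = 0.0496), and the epithelial genes Epcam and Cldn7 fell (edgeR adjusted p = 0.0126 and 0.0224). Of the rest, with all 6 mice, 1 of 5 stromal progenitor and 1 of 5 mesothelial genes rose. The 9 called seminal vesicle genes of 11 were lower on HFD. Epithelial markers summed to 1035, 105 and 25.6 TMM-scaled CPM in NCD replicates 1 to 3 and to 15.6 to 78.5 on HFD, and Cldn7 was at 0 in all HFD mice. NCD replicate 1, the highest, was also the NCD mouse with the most Pycard and Il1r1. The part of this epithelial and seminal vesicle RNA in those values was not tested.

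**Figure D4:**
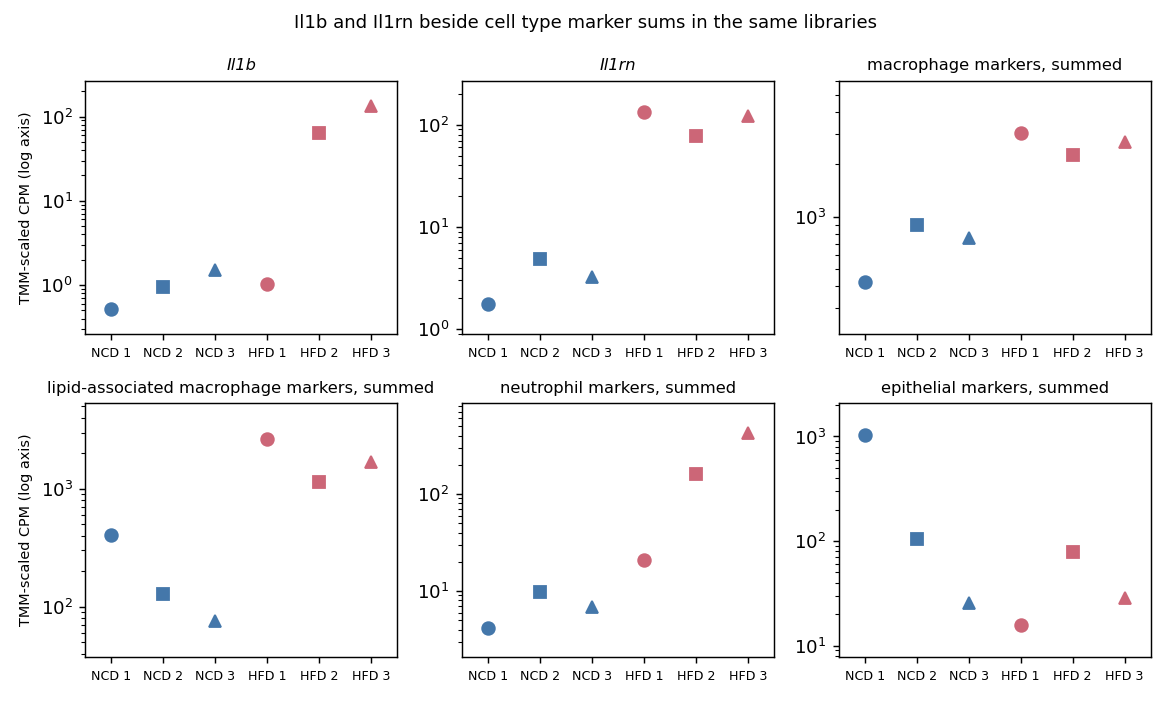
TMM-scaled CPM (log axes) of Il1b, Il1rn and the summed macrophage, lipid-associated macrophage, neutrophil and epithelial markers in each of the 6 mice. HFD replicate 1 is the highest mouse for Il1rn (134) and both macrophage sums (3005 and 2650) and the lowest HFD mouse for Il1b (1.02) and neutrophil markers (20.7).

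Each member was also set against the summed macrophage counts of its own library. Il1rn was at 4.22, 5.39 and 4.31 counts per 1000 macrophage marker counts in the NCD mice and 44.5, 34.1 and 46.2 in the HFD mice. It was the single member of 10 above NCD in every HFD mouse, by 3.16 on the log2 scale (exact permutation p = 0.1, the smallest possible). Il18 (8.05, 5.91 and 5.89 in NCD, 2.21, 5.32 and 5.7 on HFD) and Casp1 (15.9, 21.3 and 22.3 in NCD, 14.8, 13.1 and 11.8 on HFD) were below NCD in every HFD mouse, by -0.69 and -0.58 on the log2 scale (exact permutation p = 0.1 for each). For Il18 this was -0.25 without HFD replicate 1 (exact permutation p = 0.3). The other 7 members overlapped between the diets. Aim2, which rose on the CPM scale, was at 6.57 to 8.47 per 1000 macrophage counts in NCD and 5.88 to 9.01 on HFD, and Gsdmd at 22.5 to 26.2 and 13.5 to 24.4. Il1b per 1000 macrophage counts was 1.07 to 2 in NCD and 0.343, 28.3 and 49.5 in HFD replicates 1 to 3. With Adgre1 alone as the reference, 6 members in place of 2 were below NCD in every HFD mouse. Both references were themselves higher on HFD, the macrophage sum at 2264 to 3005 against 422 to 902 TMM-scaled CPM and Adgre1 at 211 to 418 against 25.5 to 57.2. A gene of unchanged level therefore falls by this measure. The share of all genes above or below NCD by it was not computed, so these counts of members have no baseline.

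The wider pathway was read from 7 further lists, of which 67 genes were in the table and 63 were tested. By edgeR 15 of 63 rose and 0 were called lower, with 38 of 63 at an unadjusted p below 0.05 in either direction (16.0% of all genes higher and 13.7% lower). Without NCD replicate 1, 22 of 65 rose and 2 fell, beside 10.7% and 10.1% of all genes. DESeq2 called 33 of 63 higher and 3 lower, beside 14.1% and 11.5% of all genes. The median log2 fold change was 0.92, compared with -0.078 over all genes tested, and in 33 of 63 every HFD mouse stood above every NCD mouse, as in 20.5% of all genes tested. When a mouse other than NCD replicate 1 was left out, edgeR called 0 of these genes, with 31 to 42 at an unadjusted p below 0.05. Of the 15433 to 15764 genes tested in those fits, 2988 to 4345 were below it.

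Of the other IL-1 family ligands, 3 were in the table and 2 were tested, of which edgeR and DESeq2 called 0 and 1 had an unadjusted p below 0.05. Il33, an alarmin stored in nuclei of stromal and mesothelial cells and the most abundant of the list by CPM, was at 13.8, 11.1 and 9.55 TMM-scaled CPM in NCD and 10.5, 30.9 and 23.3 on HFD (log2 fold change 0.91 ± 0.404, SE; edgeR adjusted p = 0.193). Il36g, named after its values were seen, had 0, 4 and 7 counts in the NCD mice and 0, 435 and 856 in HFD replicates 1 to 3, the split seen for Il1b, and did not pass the filter on low counts with 6 mice. Of 8 other receptors and decoys edgeR called 0, with 2 at an unadjusted p below 0.05, and DESeq2 called 3. Il18bp, the soluble inhibitor of IL-18, was the most abundant of them by CPM and lay at 16.7, 17.3 and 11.9 in NCD and 10.2, 22.1 and 24.5 on HFD (log2 fold change 0.31, edgeR adjusted p = 0.594). The decoy Il1r2 was at 4.14, 0.886 and 0.633 TMM-scaled CPM in NCD and at 0.503, 11.5 and 35.2 on HFD.

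Of 9 other inflammasome sensors tested, 5 rose, namely Nlrp1a, Nlrp1b, Naip1, Naip5 and Mefv. Mefv, which encodes the sensor pyrin, had the largest change of these 5 and was at 0.883, 2.26 and 1.1 TMM-scaled CPM in NCD and 4.37, 21 and 37.4 on HFD (log2 fold change 3.88, edgeR adjusted p = 0.0496). It missed the threshold without NCD replicate 1 (edgeR adjusted p = 0.0516). Naip1, which recognises bacterial needle protein, rose by 2.88 on the log2 scale (edgeR adjusted p = 0.0415) at no more than 1.82 CPM in any mouse. Nlrp1a rose by 2.77 (edgeR adjusted p = 0.0289), and Naip5, the flagellin sensor, rose by 1.89 from 7.16 to 8.78 in NCD to 25.1 to 37.4 TMM-scaled CPM on HFD (edgeR adjusted p = 0.0212). The Naip and Nlrp1 genes are near-identical families whose reads could be divided among copies, so their values are uncertain.

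A pair of these sensors, named after their values were seen, had no count at all in a whole diet group. Nlrp12 had 0 counts in all NCD mice and in HFD replicate 1 and 63 and 166 counts in HFD replicates 2 and 3. Naip6 went the other way, with 573, 279 and 35 counts in NCD replicates 1 to 3 and 0 in all HFD mice. Against a floor of 3 counts per library it was at least 168-fold lower on HFD, and at least 58.7-fold lower without NCD replicate 1. It passed edgeR's threshold without that mouse (adjusted p = 0.0313) and missed it with all 6 (adjusted p = 0.0607). Its order among NCD mice was that of the epithelial and seminal vesicle sums, and their part in it was not tested.

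Of 10 regulators and other caspases 2 rose. Panx1, a channel that releases ATP, was at 1.16, 2.78 and 2.87 TMM-scaled CPM in NCD and 8.56, 9.48 and 11 on HFD (log2 fold change 2.09, edgeR adjusted p = 0.036). Casp8, a caspase of death receptors that can also cut pro-IL-1β, rose by 1.25 on the log2 scale (edgeR adjusted p = 0.0496). Txnip, a thioredoxin-binding protein and the most abundant of the list by CPM, was at 581 to 786 in NCD and 1012 to 1611 on HFD (log2 fold change 0.92, edgeR adjusted p = 0.112), and was called without NCD replicate 1 (edgeR adjusted p = 0.0407).

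Of 3 tested genes of membrane rupture and other gasdermins, Ninj1 rose. It encodes the protein that tears the cell membrane open after gasdermin pores form. Its level was 24.3, 32.7 and 31 TMM-scaled CPM in NCD and 61.1, 78.1 and 78.4 on HFD, with no overlap (log2 fold change 1.3 ± 0.183, SE; edgeR adjusted p = 0.0223). Gsdma, named after its values were seen, was at 1686, 308 and 43 counts in NCD replicates 1 to 3 and at 0, 0 and 7 on HFD (edgeR adjusted p = 0.061, and 0.037 without NCD replicate 1).

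IL-1 receptor signalling genes had a median log2 fold change of 0.027 over 16 genes, with differences in both directions, and 2 rose. Unadjusted p was below 0.05 for 7 of 16, DESeq2 called 6, and in 7 every HFD mouse stood above every NCD mouse. Irak4, the kinase that starts the signal at the receptor, was at 12.5 to 15.4 TMM-scaled CPM in NCD and 27.7 to 36.1 on HFD (log2 fold change 1.16, edgeR adjusted p = 0.0235). Irak3, the kinase-dead inhibitor of the same step, was at 15.9 to 19.2 and 25.8 to 34.8 (log2 fold change 0.87, edgeR adjusted p = 0.0428). Tab2, an adaptor of the TAK1 kinase and the most abundant of the list by CPM, was at 100 to 131 in NCD and 101 to 117 on HFD (log2 fold change -0.015, edgeR adjusted p = 0.961).

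Genes known to respond to IL-1, most of which also respond to other inflammatory signals, had a median log2 fold change of 2.44, and 5 of 15 rose. Saa3, an acute phase protein made in fat, was at 4.38, 11.2 and 19.4 TMM-scaled CPM in NCD and at 47.9, 207 and 360 on HFD (log2 fold change 4.13, edgeR adjusted p = 0.0495). Ccl2, the chemokine that draws monocytes, was at 3.81, 11.7 and 9.56 in NCD and 46.7, 95.3 and 158 on HFD (log2 fold change 3.58, edgeR adjusted p = 0.0293). Both were lowest of the HFD mice in replicate 1, yet there still above every NCD mouse. Tnf, a cytokine of activated macrophages, was more even among the HFD mice, at 3.88, 3.48 and 4.37 TMM-scaled CPM against 0.335 to 1.15 in NCD (log2 fold change 2.44, edgeR adjusted p = 0.0417). Zc3h12a and Icam1 completed the 5.

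**Figure D5:**
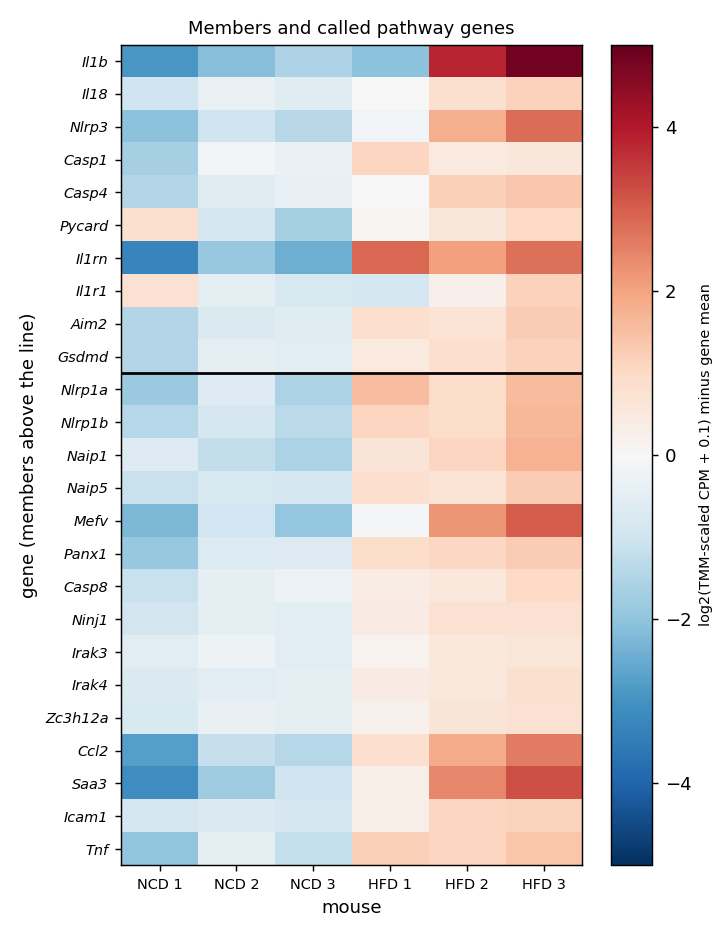
Log2(TMM-scaled CPM + 0.1) minus the mean of each gene over the 6 mice, for the 10 members (above the line) and the 15 other pathway genes that passed the threshold and so had to differ (below it). Il1b, Nlrp3, Mefv, Ccl2 and Saa3 are reddest (highest) in HFD replicates 2 and 3, while Il1rn, Nlrp1a and Tnf are of similar colour in all 3 HFD mice.

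The genes most alike to each member were those with the smallest SD over the 6 mice of the log2 count ratio to it, among 12904 tested genes with a mean of at least 100 counts. This is a description over the 6 mice. For Il1b these were Acod1 (SD 0.456), Trem1 (0.756) and Osm (1), and Acod1 was at 0.503 TMM-scaled CPM in HFD replicate 1 and 20.8 and 60 in the others. For Nlrp3 they were Csf3r (SD 0.162), Nxpe5 (0.337) and Tgm1 (0.341). For Il1rn they were F7 (SD 0.386), Ubd (0.408) and Otop1 (0.496), and F7 was at 55.7, 20.2 and 32.8 in HFD replicates 1 to 3 and at most 1.4 in NCD. Gsdmd was followed most closely, by Il2rg with an SD of 0.0322, then Stab1 (0.0901) and Tgm2 (0.0911).

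The remaining members had these neighbours by the same measure. Il18 was closest to Sdc4 (SD 0.0807), Dhx58 (0.117) and Ifitm2 (0.131), and Casp4 to Oas2 (0.157), Pmaip1 (0.19) and Rasgrp4 (0.195). Casp1 was closest to Scpep1 (SD 0.131), Vim (0.132) and Fhl3 (0.165), and Aim2 to Rab29 (0.119), Fam78a (0.12) and Arhgdib (0.121). Pycard was closest to Ckap4 (SD 0.144), Pla2g4a (0.179) and Arhgef10l (0.236), and Il1r1 to Itga2b (0.185), Vps37b (0.24) and D730005E14Rik (0.295).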

How the data were processed

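The authors deposited raw read counts per gene, 1 column per mouse, without normalization (the third HFD column carries the number 4), and 0 columns had no sample. The submitters' processing notes name bcl2fastq 2.20.0, Trimmomatic, HISAT2 2.1.0, StringTie 1.3.4d and DESeq2, and the builds mm10 and GRCm38, with no role or order. The methods name TRIzol extraction, the TruSeq mRNA kit and a NovaSeq sequencer. Of 19790 gene identifiers 19742 were paired with symbols through RefSeq (GRCm38.p6), and the other 48 held 0.629% of the counts. The members and lists were chosen with earlier results of these data known.

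Genes with low counts were removed (filterByExpr with a minimum count of 10 and a minimum total of 15). Libraries were scaled by TMM, and glmQLFit with glmQLFTest of edgeR 4.0.16 was run in R 4.3.3. The SE is the size of the log2 fold change over the square root of F. TMM factors were 0.496 for NCD replicate 1 and 1.02 to 1.27 for the other mice. Exon lengths came from GENCODE vM21, trimmed to RefSeq spans. Ratios used a pseudocount of 0.5. Depth was 49575113 to 66360046 counts per library, and floors of 3 counts cover counting error only. Replicates of a diet differed beyond counting noise (chi-square divided by its degrees of freedom, 116 to 3600), so none was merged. The test was checked on simulated data.

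In each further list the text names up to 3 called genes of largest change and the most abundant, and marker genes at 0 or on which a result turns. Alternatives were no filter, median-of-ratios scaling, TMM without the 11 seminal vesicle genes, DESeq2 1.42.0, the replicate block, each mouse left out, a pseudocount of 1, Adgre1 as the macrophage reference and total counts for FPKM. Total counts in the test and untrimmed exons were added after the data were seen. Listed genes without a row (Il36a, Il36b, Il36rn, Il1f10, Gsdma2, Gsdma3, Gsdmc, Gsdmc2, Gsdmc3) were not analysed here. Figures were drawn with matplotlib 3.10.9.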

Additional observations from a re-analysis of the deposited data

How the results depend on the processing

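The 3 called members were the same 3 with no filter, median-of-ratios scaling and TMM without seminal vesicle genes. Total counts called Nlrp3 in place of Gsdmd, DESeq2 called 8 members and the fit with each mouse left out 0 to 5. Of the other pathway genes 15 were called, with 9 under no filter, 36 by DESeq2 and 0 to 24 with a mouse left out. Of the marker genes 22 were called, with 14 under no filter, 13 with the seminal vesicle genes out before TMM (the genes taken out were not tested), 40 by DESeq2 and 0 to 32 with a mouse left out. With the replicate block, edgeR called 0 in each of these 3 sets, with 8, 38 and 42 genes at an unadjusted p below 0.05. Of all 15241 genes tested, that fit called 12 and had 3571 at an unadjusted p below 0.05. Same-numbered mice deviated with correlations of -0.0565, -0.0457 and 0.00965, and 0 of 6 mice were closest to their own number. With 3 mice per diet and the seminal vesicle RNA in NCD, this check cannot exclude a pairing. With a mouse left out, the log2 difference of the Il1rn to Il1b ratio ran from -1.64 (without HFD replicate 1) to 1.91. That of Casp4 to Casp1 ran from -0.043 to 0.89, negative without HFD replicate 2 (-0.006) or 3 (-0.043). Relative to macrophage markers, Casp4 ran from -0.58 to 0.23 and Aim2 from -0.27 to 0.036, positive without HFD replicate 1, and Pycard from -1.52 to 0.15, positive without NCD replicate 1. With Adgre1 as reference 6 members were below NCD in every HFD mouse, against 2, with no share of all genes computed. The log2 fold change of Il1r1 ran from -0.20 (without HFD replicate 3) to 1.04, and the other 9 members kept their direction in every fit. The causes were not tested. Depth limits the genes with few counts, such as Il1b in NCD and Nlrp12.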
